A study of Mus musculus with 4 samples.

Results

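Protoplasmic astrocytes of the mouse superior colliculus, the midbrain region that receives retinal and other sensory input, were taken as the nuclei that carry the subtype Protoplasmic Astrocyte in the deposited table of nuclei. They numbered 750 of the 9724 nuclei sequenced, with 155 from embryonic day 19 (E19), and 175, 188 and 232 from postnatal days 4, 8 and 21 (P4, P8 and P21). All of them came from 1 of the authors' clusters, number 1. The astrocytes labelled Fibrous Astrocyte, set beside them below, numbered 189, with 41, 48, 45 and 55 at the same stages. The mice were of the C57BL/6J strain at every stage, with no genetic change or treatment named in the labels. Each stage was 1 library of nuclei from several pooled animals, so no stage had a replicate and no test between stages was made. Single-nucleus RNA was captured at the 3′ end, and a level is given in CPM: the unique molecular identifiers (UMIs) of a gene summed over the protoplasmic nuclei of a library, per 1000000 UMIs of that sum. Intervals in parentheses are 95% intervals that cover counting error only.

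Astrocytes take up glutamate, GABA and potassium released by neurons, supply them with metabolites, and are joined to each other by gap junctions. Protoplasmic astrocytes occupy grey matter, where fine processes wrap synapses, whereas fibrous astrocytes lie in white matter and along the surfaces of the brain and are rich in the intermediate filament protein GFAP. Astrocytes arise from radial glia around birth, and in rodents they go on dividing and maturing over the first postnatal weeks.

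Against neurons, the defining markers bore out an astrocyte identity in all 4 libraries. The nuclei were labelled by the authors on these same counts. The glial glutamate transporter gene Slc1a2 (chr2:102658659-102790784, GRCm38) was at 678 (E19), 857 (P4), 1200.0 (P8) and 3815 CPM (P21), and the related transporter gene Slc1a3 was at 1096 (E19), 893 (P4), 1127 (P8) and 1279 CPM (P21). Gja1, which encodes the gap junction protein connexin 43, was at 135 (E19), 158 (P4), 198 (P8) and 534 CPM (P21). Together the 3 genes held between 1908 CPM (P4) and 5628 CPM (P21) in protoplasmic astrocytes and between 58.2 and 165 CPM in the excitatory and inhibitory neurons of the same libraries. In fibrous nuclei they held 1060 (E19), 576 (P4), 1389 (P8) and 1627 CPM (P21). With every nucleus thinned to 2000 UMIs, 67.7% of protoplasmic nuclei at E19 and 99.4% at P21 held an Slc1a2 UMI, against 18.6% and 7.40% of excitatory neurons. Without thinning the shares were 87.7% and 100% in protoplasmic astrocytes and 48.5% and 44.0% in excitatory neurons. Thinned Gja1 shares were 19.8% (E19), 23.7% (P4), 31.0% (P8) and 62.6% (P21) in protoplasmic nuclei. In fibrous nuclei they were 23.4%, 14.0%, 33.7% and 62.7%. The median protoplasmic nucleus held between 4277 UMIs (P4) and 5811 UMIs (P21), and the median excitatory neuron between 8052 and 19601.

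**Figure D1:**
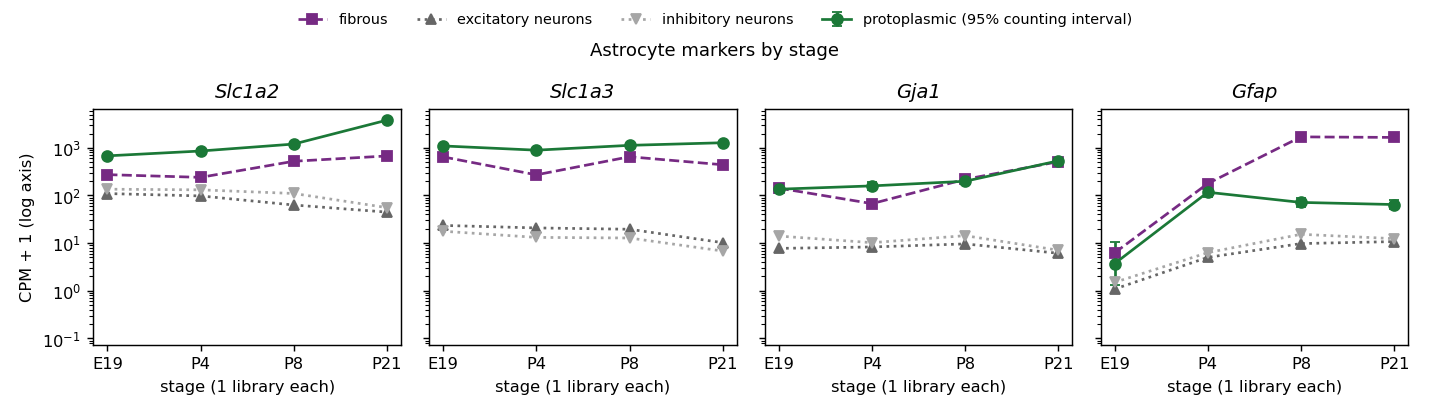
Levels of 4 astrocyte genes in protoplasmic astrocytes, fibrous astrocytes and neurons at each stage, in CPM plus 1 on a log axis, with 1 library a stage and counting intervals on the protoplasmic values. Slc1a2, Slc1a3 and Gja1 lay above both neuron classes in every library, and Gfap separated the 2 astrocyte labels at P8 and P21 but not at E19.

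Depth and the RNA of other cells moved with stage. The protoplasmic nuclei held 735652, 784172, 1020001 and 1399205 UMIs in all from E19 to P21, and the median share of mitochondrial UMIs went from 0.980% at E19 and 1.31% at P4 to 0.413% at P21. The median share of ribosomal protein UMIs was lower at each stage than at the one before. It was 0.756%, 0.552%, 0.374% and 0.179% in protoplasmic nuclei and 0.498%, 0.325%, 0.240% and 0.155% in neurons. Neurons thus shared this order, which is also that of the leading falls below. The 8 neuron markers summed to between 1150 and 1510 CPM, against 13051 CPM or more in neurons, with the highest value at E19. Most protoplasmic nuclei nonetheless held UMIs of several of these genes. Only 25 of 155 (E19), 33 of 175 (P4), 25 of 188 (P8) and 22 of 232 (P21) had fewer than 2 of them. The 6 oligodendrocyte markers summed to 25.8, 30.6, 42.2 and 730 CPM from E19 to P21, and 5 markers of ependyma and choroid plexus to 2.72, 172, 1.96 and 7.15 CPM. Markers of oligodendrocyte precursors went from 288 CPM at E19 to 59.3 at P21, opposite to the oligodendrocyte markers. Vcan, a matrix gene given below, held most of the precursor sum at E19, and Ttr most of the ependyma and choroid plexus sum at P4. Markers of microglia (13.6 to 21.6 CPM), of endothelial and mural cells (32.4 to 47.2 CPM) and of vascular leptomeningeal cells (32.6 to 68.9 CPM) stayed low in every library. Dividing-cell markers summed to 61.2 CPM at E19 and 1.43 CPM at P21, where Mki67, Cenpf and Kif11 were at 0. The part of these differences in the results below was not tested. In all, 9 barcodes occurred in more than 1 library, 1 of them on a protoplasmic nucleus.

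Protoplasmic astrocytes of E19 were 5.996% of all nuclei (5.11 to 6.98), those of P4 7.33% (6.32 to 8.45), those of P8 7.51% (6.51 to 8.61) and those of P21 10.3% (9.09 to 11.6). The P21 share lay above the other 3 beyond counting error, and those of P4 and P8 did not differ beyond it. As a share of non-neuronal nuclei the order was the reverse, from 43.8% at E19 through 39.6% and 34.2% to 28.1% at P21. Among astrocytes alone the share was 79.1%, 78.5%, 80.7% and 80.8%, with overlapping intervals. A share is one of the nuclei captured, and fewer cells of a type cannot be told apart from fewer nuclei recovered from them.

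Hes5, a Notch target gene, and Hmgcs1, a gene of cholesterol synthesis, belong to gene lists described below. The metallothionein genes Mt1 and Mt2, whose proteins bind zinc and copper, belong to none of those lists. Promoter sequences of these 4 genes are shown. They are the 250 bases before the annotated start in RefSeq on GRCm38.p6, plus strand, at chr4:154960673-154960922, chr13:119690101-119690350, chr8:94178839-94179088 and chr8:94172368-94172617. Capitals mark matches to a motif on either strand: GTGGGAA (the letters bound by the Notch effector RBPJ) in Hes5, TCACNCCAC (sterol response element) in Hmgcs1, and TGCGCNC or TGCACNC (metal response element core) in Mt1 and Mt2.
Hes5: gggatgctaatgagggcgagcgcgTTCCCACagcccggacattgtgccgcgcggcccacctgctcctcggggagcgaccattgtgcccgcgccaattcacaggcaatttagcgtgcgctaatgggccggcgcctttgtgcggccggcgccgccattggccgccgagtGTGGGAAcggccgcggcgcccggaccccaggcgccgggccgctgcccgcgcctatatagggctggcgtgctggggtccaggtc
Hmgcs1: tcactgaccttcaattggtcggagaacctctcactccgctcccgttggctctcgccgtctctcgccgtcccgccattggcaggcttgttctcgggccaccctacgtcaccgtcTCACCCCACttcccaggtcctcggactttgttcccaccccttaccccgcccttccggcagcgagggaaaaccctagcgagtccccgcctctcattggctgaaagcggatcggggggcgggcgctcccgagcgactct
Mt1: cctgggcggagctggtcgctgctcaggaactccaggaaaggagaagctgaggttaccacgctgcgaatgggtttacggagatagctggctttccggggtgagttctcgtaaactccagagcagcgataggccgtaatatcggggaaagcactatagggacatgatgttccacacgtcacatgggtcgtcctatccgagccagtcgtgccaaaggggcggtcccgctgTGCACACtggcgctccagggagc
Mt2: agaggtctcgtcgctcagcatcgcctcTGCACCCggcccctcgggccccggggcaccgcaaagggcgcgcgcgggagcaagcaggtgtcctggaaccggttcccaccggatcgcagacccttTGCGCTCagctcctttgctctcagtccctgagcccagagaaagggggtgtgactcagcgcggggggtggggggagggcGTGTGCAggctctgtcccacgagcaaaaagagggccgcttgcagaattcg
No marked match overlapped another. Among 32851 RefSeq windows of this length, GTGGGAA occurred in 5.42%, TCACNCCAC in 1.05%, TGCGCNC in 12.5% and TGCACNC in 10.4%. The Hes5 window held 2 matches, 83 and 226 bases before the start, and the Hmgcs1 window 1, at 137 bases. The Mt2 window held 3, at 50, 128 and 223 bases, and the Mt1 window 1, at 23 bases. The motifs, and the choice of Mt1 and Mt2, were made after their values were seen, and a match describes letters and not a bound site.

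The first comparison asked how protoplasmic astrocytes differed between birth and the end of the third postnatal week. Among list members at 20 CPM or more, 11 of 19 receptor genes were at least 2-fold higher at P21 and 3 lower, 8 of 14 genes of ion homeostasis were higher and 0 lower, and 14 of 14 genes of the immature cytoskeleton were lower. Over all genes at that level 8.5% were higher and 19.8% lower, and no list was tested. The lists were chosen with earlier results of these data known. Among 2563 genes at 100 CPM or more in the higher stage, 358 were at least 2-fold higher at P21 than at E19 (14%) and 490 at least 2-fold lower (19.1%), on a log2 scale with 5 CPM added. The balance depended on the scaling: with median-of-ratios scaling, which adds 0.34 to every log2 ratio of this comparison, 540 genes were higher and 325 lower, so that 62.4% of both were higher against 42.2%. The 20 most abundant genes took 10.1% of protoplasmic UMIs at E19 and 15.5% at P21. The log2 ratios below are therefore relative to the total of each library.

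The 10 largest rises included genes that stood near 0 until P8. Etnppl, which encodes an enzyme that breaks down phosphoethanolamine, had no UMI at E19, P4 or P8 and was at 307 CPM at P21, at least 75.4-fold higher at P21 than at E19. At P21, 59.1% of protoplasmic nuclei held an Etnppl UMI (36.6% when thinned), against 0.880% of excitatory neurons. Gria1 (chr11:57011387-57330244), which encodes the AMPA receptor subunit GluA1, was at 44.9 (E19), 56.1 (P4), 82.4 (P8) and 2354 CPM (P21), 52.5-fold higher at P21 than at E19 (37.3 to 76.4). Its 3 earlier levels lay close together and far below that of P21. Until P8 it was also under 0.1 times the level in inhibitory neurons (1121 CPM at E19, 1152 CPM at P4 and 1275 CPM at P8), and the thinned share of protoplasmic nuclei with a UMI, 8.58% at E19 and 12.9% at P8, lay below that of excitatory neurons (64.0% and 66.1%). At P21 the thinned share was 91.8% in protoplasmic astrocytes and 56.3% in excitatory neurons.

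Gabrb1, a GABA-A receptor subunit gene, was higher at each stage than at the one before. It was at 116 (E19), 278 (P4), 565 (P8) and 3581 CPM (P21), 31.00-fold higher at P21 than at E19 (25.02 to 38.9). Trpm3 (chr19:22139046-22995410), which encodes a calcium-permeable channel, was at 281 (E19), 534 (P4), 1672 (P8) and 10637 CPM (P21), 37.8-fold higher at P21 than at E19 (32.96 to 43.6). Each Trpm3 level lay above the one before, and until P8 it was under 0.1 times that in vascular leptomeningeal cells (28871 CPM at E19, 33626 CPM at P4 and 29453 CPM at P8). Gpld1, which encodes a phospholipase that releases anchored surface proteins, was at 4.08 (E19), 6.38 (P4), 13.7 (P8) and 358 CPM (P21), 87.8-fold higher at P21 than at E19 (29.9 to 427). Itih3, which encodes a hyaluronan-binding protein, was at 8.16 (E19), 24.2 (P4), 17.6 (P8) and 329 CPM (P21), 40.3-fold higher at P21 than at E19 (18.4 to 110.4). Both were low in the 3 earlier libraries.

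Of the other leading genes, Lgr6, a receptor gene of the Wnt-enhancing R-spondins, was at 0 (E19), 12.8 (P4), 20.6 (P8) and 138 CPM (P21), at least 33.8-fold higher at P21 than at E19. Eva1a was at 0 (E19), 0 (P4), 0.980 (P8) and 152 CPM (P21), at least 37.3-fold higher at P21 than at E19, and the noncoding RNA gene A330076C08Rik was at 1.36 (E19), 0 (P4), 0 (P8) and 264 CPM (P21), resting on 1 UMI at E19. All 3 were highest at P21. Thinned shares at P21 in protoplasmic and fibrous nuclei were 24.3% and 27.9% for Eva1a, 21.4% and 2.24% for Lgr6, and 37.0% and 0.618% for A330076C08Rik.

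Genes that were lower at P21 declined at every step in each of the 10 leading cases. Tubb2b, a beta-tubulin gene of growing processes, was at 1098 (E19), 844 (P4), 313 (P8) and 11.4 CPM (P21), 96.1-fold lower at P21 than at E19 (58.8 to 169). Excitatory neurons of the same libraries held 704, 336, 133 and 4.998 CPM of Tubb2b, so neurons shared the order of stages. Veph1 was at 175 (E19), 62.5 (P4), 2.94 (P8) and 0 CPM (P21), at least 81.8-fold lower at P21 than at E19. Has2, which encodes a hyaluronan synthase, was at 148 (E19), 79.1 (P4), 9.80 (P8) and 0 CPM (P21), at least 69.1-fold lower at P21 than at E19. Neither Veph1 nor Has2 had a UMI at P21.

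Ephrin receptor genes, which guide axons and sort cells by contact, were among the leading declines. Ephb1 was at 1563 (E19), 462 (P4), 213 (P8) and 50.7 CPM (P21), 30.8-fold lower at P21 than at E19 (24.2 to 39.7). Ephb2 was at 349 (E19), 165 (P4), 63.7 (P8) and 12.9 CPM (P21), 27.2-fold lower at P21 than at E19 (16.8 to 46.6). The largest drop of Ephb1 in CPM was that from E19 to P4, and by ratio that from P8 to P21. At P21 Ephb1 was under 0.1 times its level in oligodendrocyte-lineage cells (1009 CPM at P21).

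St8sia2, which encodes an enzyme that adds polysialic acid to the adhesion protein NCAM, was at 145 (E19), 57.4 (P4), 28.4 (P8) and 1.43 CPM (P21), and the tetraspanin gene Tspan18 at 194 (E19), 45.9 (P4), 23.5 (P8) and 3.57 CPM (P21). Megf11, which encodes a surface protein of the engulfment receptor family, was at 287 (E19), 196 (P4), 62.7 (P8) and 5.72 CPM (P21). Tmsb10, which encodes an actin-binding thymosin, was at 651 CPM (E19), 398 (P4) and 15.7 (P21), and the tubulin gene Tubb5 at 759.9 (E19), 611 (P4), 234 (P8) and 28.6 CPM (P21). All 5 genes were highest at E19 and lowest at P21. At P21 Megf11 was under 0.1 times its level in dividing cells (1215 CPM), and Tspan18 in endothelial cells (81.3 CPM).

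**Figure D2:**
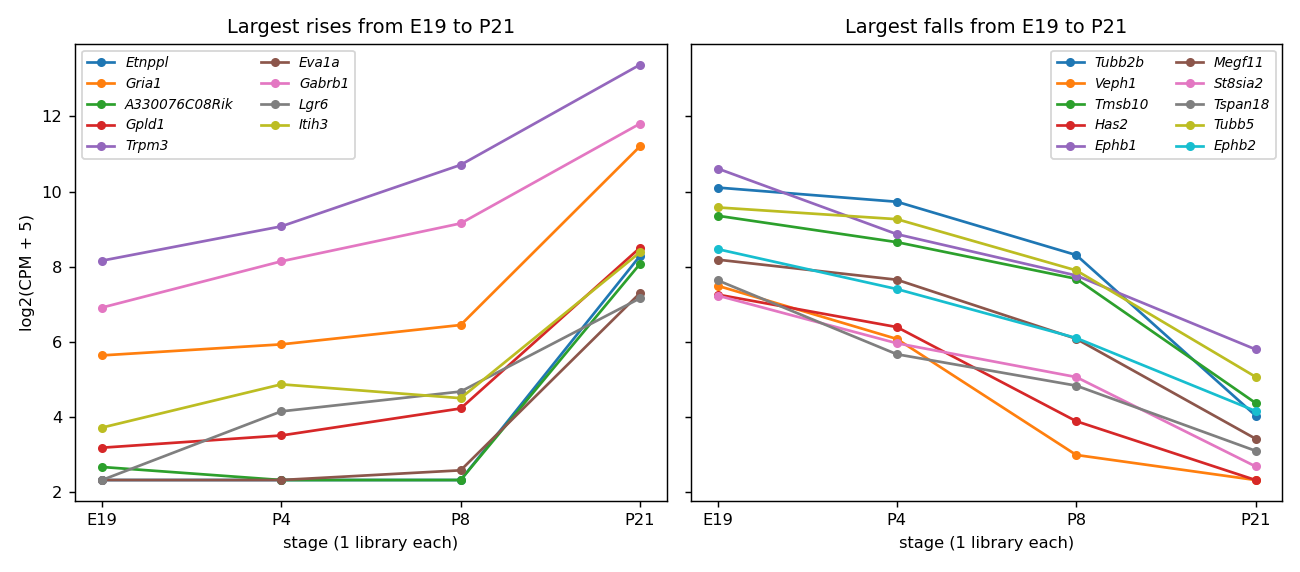
Level of 9 of the 10 genes with the largest rises and of the 10 with the largest falls from E19 to P21 in protoplasmic astrocytes, as log2(CPM + 5) at each stage, 1 library a stage. Most rising genes stayed low until P8, whereas the falling genes were already lower at P4 and P8.

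Consecutive stages showed when these differences arose. The size of a step, taken as the value that 90% of genes at 100 CPM or more did not exceed in absolute log2 ratio, was 0.72 between E19 and P4, 0.58 up to P8 and 1.42 up to P21, the step that spans the longest time. From E19 to P21 it was 2.31 in protoplasmic astrocytes, against 2.18 in the fibrous label, 1.32 in excitatory and 1.33 in inhibitory neurons. The fibrous sums rest on fewer nuclei and the neuronal ones on more. From P4 to P8 the fibrous step was 1.81, larger than the protoplasmic one, and the nuclei under that label changed in their cilium genes between those libraries, as described below. At 100 CPM or more, 50 genes were at least 2-fold higher at P4 than at E19 (2.09%) and 47 lower (1.97%). At P8 against P4 there were 14 higher (0.62%) and 40 lower (1.77%), and at P21 against P8 184 higher (8.13%) and 204 lower (9.02%).

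From E19 to P4 the leading rises were Ttr, Gfap and Ptchd4. Ttr, the transthyretin gene of choroid plexus, was at 0 (E19), 169.6 (P4), 0 (P8) and 2.86 CPM (P21) in protoplasmic astrocytes and at 2371 CPM in fibrous astrocytes of P4, while excitatory neurons of P4 held 72.6 CPM and inhibitory neurons 95.7, so it was present in all these classes of that library. Gfap was at 2.72 (E19), 116 (P4), 70.6 (P8) and 63.6 CPM (P21). It had 2 UMIs at E19, and 21.98% of protoplasmic nuclei held a Gfap UMI at P21, against 18.0% of excitatory neurons. When thinned the shares were 10.4% and 2.30%. Ptchd4 was at 77.5 (E19), 390.2 (P4), 992 (P8) and 397 CPM (P21), highest at P8.

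Over the same step Col25a1, a membrane collagen gene, Tspan18 and Maml3, a gene of the Mastermind family of Notch co-activators, were the leading falls. Col25a1 was at 537 (E19), 111 (P4), 90.2 (P8) and 40.02 CPM (P21), and Maml3 at 209 (E19), 53.6 (P4), 20.6 (P8) and 28.6 CPM (P21). After E19 both lay far below their first level. In later libraries they were under 0.1 times their level in epithelial cells (Col25a1, 3649 CPM at P21) and in microglia (Maml3, 1432 CPM at P21).

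From P4 to P8 Aifm3, Trpm3 and Car10 led the rises, and with both astrocyte labels together the Trpm3 log2 ratio over this step was −0.11. Aifm3 was at 19.03 (E19), 31.9 (P4), 117 (P8) and 283 CPM (P21), and Car10, which encodes a catalytically inactive carbonic anhydrase relative, was at 156 (E19), 299.7 (P4), 935 (P8) and 1559 CPM (P21). Ttr, the noncoding RNA gene Gm29683 (338, 335, 102 and 131 CPM over the 4 stages) and Rnf220 (162, 108, 32.4 and 49.3 CPM) led the falls. From P8 to P21 the leading falls beside Tubb2b were Adamtsl1 and Tnc. Adamtsl1 was at 232 (E19), 213 (P4), 198 (P8) and 12.1 CPM (P21), so P21 stood apart from the 3 earlier libraries.

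Some genes peaked or dipped between birth and P21. Col23a1, a membrane collagen gene, was at 67.97 (E19), 247 (P4), 284 (P8) and 70.04 CPM (P21), and Grik1, a kainate receptor gene, at 57.1 (E19), 142 (P4), 203 (P8) and 31.4 CPM (P21). Both were higher at P4 and P8 than at E19 and P21. Gm1604a (20.4, 2.55, 6.86 and 136 CPM), Arhgef28 (63.9, 36.98, 22.5 and 142 CPM) and Zbtb16 (19.03, 5.10, 21.6 and 105 CPM) were lowest at P4 or P8. A Gm1604a UMI was present in 8.39% of nuclei at E19 and 0.571% at P4, and a Zbtb16 UMI in 7.74% and 1.71%. The dips of Gm1604a and Zbtb16 therefore rest on few UMIs.

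Gene lists with a known role in astrocytes were then followed from E19 to P21, over members at 20 CPM or more in the higher stage. Over all 8505 such genes, 723 were at least 2-fold higher (8.5%), 1682 at least 2-fold lower (19.8%), and the median log2 ratio was −0.26. Counts below are read against these shares. The lists were chosen with earlier results of these data known, and several hold genes that lead the ranks above. Their counts therefore describe the lists and are not independent support for a change in a function.

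In glutamate uptake and recycling, 4 of 9 members were higher and 0 lower, with a median log2 ratio of 0.61. Glul, the glutamine synthetase gene, was at 66.6 (E19), 75.2 (P4), 132 (P8) and 542 CPM (P21), 8.14-fold higher at P21 than at E19 (6.10 to 11.1). Slc7a11, the cystine and glutamate exchanger gene, was at 81.6 (E19), 346 (P4), 497 (P8) and 549 CPM (P21), 6.73-fold higher at P21 than at E19 (5.17 to 8.91), with its main step before P4. Slc1a2, given above, was 5.62-fold higher at P21 than at E19 (5.13 to 6.18), and Slc7a10, a transporter of serine and other small amino acids, was 2.65-fold higher at P21 than at E19 (2.23 to 3.16). Slc1a3, by contrast, stayed between 893 and 1279 CPM.

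GABA and glycine handling had 3 of 7 members higher and 0 lower (median 0.89). The GABA transporter gene Slc6a11 was at 909 (E19), 1178 (P4), 1414 (P8) and 2333 CPM (P21), 2.57-fold higher at P21 than at E19 (2.36 to 2.79). Maob, which encodes monoamine oxidase B, was at 6.80 (E19), 17.9 (P4), 18.6 (P8) and 84.3 CPM (P21), and Aldh5a1, of GABA breakdown, at 17.7 (E19), 24.2 (P4), 39.2 (P8) and 57.9 CPM (P21). With median-of-ratios scaling 5 members were higher.

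Potassium, water and ion homeostasis had 8 of 14 members higher and 0 lower (median 1.54). Kcnj10, the gene of the inward rectifier channel Kir4.1 that takes up potassium, was at 117 (E19), 102 (P4), 116 (P8) and 522 CPM (P21), 4.47-fold higher at P21 than at E19 (3.57 to 5.66). Its partner Kcnj16 was at 4.08 (E19), 6.38 (P4), 2.94 (P8) and 55.03 CPM (P21). The zinc transporter gene Slc39a12 was at 103 (E19), 176 (P4), 276 (P8) and 747 CPM (P21). Kcnj10 and Kcnj16 had their main step after P8, whereas Aqp4, the water channel gene, was at 158 (E19), 321 (P4), 463 (P8) and 547 CPM (P21) and was already higher at P4.

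Of the gap junction genes, Gja1 and Gjb6 passed 20 CPM and both were higher. Gja1 was 3.97-fold higher at P21 than at E19 (3.21 to 4.94). Gjb6, which encodes connexin 30, was at 4.08 (E19), 1.28 (P4), 9.80 (P8) and 205 CPM (P21), 50.3-fold higher at P21 than at E19 (17.04 to 245), resting on 3 UMIs at E19 and 287 at P21. Connexin 30 is known as a late marker of astrocytes.

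Receptor genes gave 11 of 19 members higher and 3 lower (median 1.09), or 13 and 0 with median-of-ratios scaling. Beside Gria1 and Gabrb1, the neurotensin receptor gene Ntsr2 was at 20.4 (E19), 65.04 (P4), 53.9 (P8) and 543 CPM (P21), 26.6-fold higher at P21 than at E19 (16.05 to 47.8). The NMDA receptor subunit gene Grin2c was at 4.08 (E19), 5.10 (P4), 8.82 (P8) and 137 CPM (P21), 33.6-fold higher at P21 than at E19 (11.3 to 165), with 3 UMIs at E19. The metabotropic glutamate receptor genes Grm5 and Grm3 went the other way. Grm5 was at 1066 (E19), 1499.7 (P4), 1306 (P8) and 429 CPM (P21), 2.49-fold lower at P21 than at E19 (2.23 to 2.77), and Grm3 at 1885 (E19), 2366 (P4), 2540.2 (P8) and 899.8 CPM (P21), 2.10-fold lower at P21 than at E19 (1.94 to 2.26). The cannabinoid receptor gene Cnr1 was at 33.98 to 12.1 CPM from E19 to P21. Grm3 and Grm5 were highest at P8 and P4, so their lower level was seen at P21 alone.

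Calcium handling had 5 of 13 members higher and 0 lower (median 0.59). Beside Trpm3, the phospholipase gene Plcb1 was at 185 (E19), 199 (P4), 516 (P8) and 3551 CPM (P21), 19.2-fold higher at P21 than at E19 (16.2 to 22.9), and the calcium pump gene Atp2b2 at 29.9 (E19), 26.8 (P4), 41.2 (P8) and 337 CPM (P21), 11.3-fold higher at P21 than at E19 (7.36 to 18.2). Itpr2, the main store-release channel gene of astrocytes, was at 196 (E19), 299.7 (P4), 296 (P8) and 331 CPM (P21) and did not reach 2-fold.

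Thyroid hormone and retinoid handling had 7 of 12 members higher and 3 lower (median 1.91). The thyroid hormone transporter gene Slco1c1 was at 5.44 (E19), 22.95 (P4), 54.9 (P8) and 164 CPM (P21), 30.2-fold higher at P21 than at E19 (11.6 to 112). Until P8 it was under 0.1 times its level in endothelial cells (1036 CPM at E19, 1292 CPM at P4 and 1823 CPM at P8). Thrb, a thyroid hormone receptor gene, was at 55.7 (E19), 131 (P4), 225 (P8) and 563 CPM (P21), 10.1-fold higher at P21 than at E19 (7.38 to 14.2), while Thra, the other receptor gene, was at 222 (E19), 223 (P4), 190.2 (P8) and 115 CPM (P21). The retinoic acid synthesis gene Aldh1a1 was at 10.9 (E19), 20.4 (P4), 18.6 (P8) and 311 CPM (P21), 28.6-fold higher at P21 than at E19 (14.4 to 66.6). Dio2, the gene of the deiodinase that activates thyroid hormone, was at 0 (E19), 5.10 (P4), 10.8 (P8) and 32.2 CPM (P21). The lower members included Crym, at 28.5 (E19), 1.28 (P4), 0.980 (P8) and 0 CPM (P21), and the retinoid receptor gene Rxrg, at 65.2 (E19), 75.2 (P4), 53.9 (P8) and 12.9 CPM (P21).

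**Figure D3:**
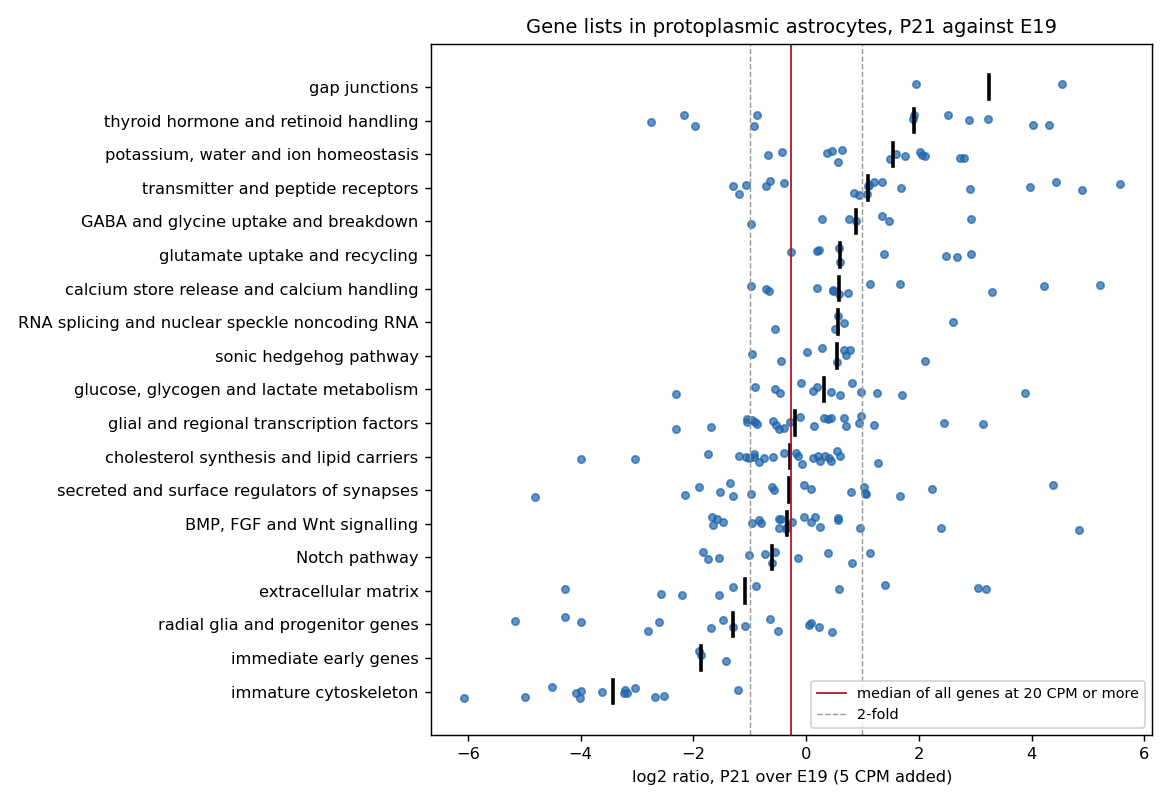
Log2 ratio of P21 over E19 in protoplasmic astrocytes (5 CPM added) of each list member at 20 CPM or more, by list, 1 library a stage; black bars are list medians, the red line is the median of all 8505 genes and dashed lines mark 2-fold. The immature cytoskeleton list has 14 of 14 members left of −1, and ion homeostasis 8 of 14 right of 1.

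In the immature cytoskeleton list, 14 of 14 measured members were lower (median −3.42), and 13 with median-of-ratios scaling. Stmn1, which encodes a tubulin-binding stathmin, was at 714 (E19), 395 (P4), 189 (P8) and 39.3 CPM (P21), 18.2-fold lower at P21 than at E19 (13.7 to 24.4). Actb, the beta-actin gene, was at 939 (E19), 630.0 (P4), 299 (P8) and 99.3 CPM (P21), 9.46-fold lower at P21 than at E19 (7.87 to 11.4). Tubb4b was the member that declined least, at 54.4 (E19), 56.1 (P4), 49.02 (P8) and 20.7 CPM (P21). Tubb3 and Tuba1a were listed at 0 in all 4 libraries, and Stmn2 and Dcx, both genes of young neurons, were at 356 to 16.4 CPM and 101 to 7.86 CPM from E19 to P21. Excitatory neurons held 478, 246, 127 and 39.1 CPM of Stmn1 and 589, 272, 149 and 62.1 CPM of Actb over the 4 stages, and the part of neuronal RNA was not tested.

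Radial glia and progenitor genes had 9 of 15 members lower and 0 higher (median −1.30). Fabp7, the brain lipid-binding protein gene, was at 957 (E19), 678 (P4), 536 (P8) and 55.03 CPM (P21), 17.4-fold lower at P21 than at E19 (13.7 to 22.3). Vim, the vimentin gene, was at 77.5 (E19), 43.4 (P4), 33.3 (P8) and 8.58 CPM (P21), and Prom1 at 29.9 (E19), 5.10 (P4), 10.8 (P8) and 0 CPM (P21). Sox2, a progenitor transcription factor gene also kept by astrocytes, was at 152 (E19), 98.2 (P4), 125 (P8) and 43.6 CPM (P21), 3.49-fold lower at P21 than at E19 (2.53 to 4.85). Nes and Hopx were below 20 CPM.

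Extracellular matrix genes moved both ways, with 3 of 10 higher and 5 lower (median −1.09). Tnc (chr4:63959785-64047015), which encodes tenascin C, was at 3246 (E19), 2431 (P4), 1784 (P8) and 162 CPM (P21), 20.01-fold lower at P21 than at E19 (17.5 to 23.03). Vcan, a proteoglycan gene also strong in oligodendrocyte precursors, was at 173 (E19), 195 (P4), 142 (P8) and 25.01 CPM (P21), and Ncan at 601 (E19), 593 (P4), 438 (P8) and 202 CPM (P21). Higher were the laminin gene Lama2, at 105 (E19), 214 (P4), 253 (P8) and 907 CPM (P21), 8.66-fold higher at P21 than at E19 (6.88 to 11.1), the syndecan gene Sdc4, at 10.9 (E19), 8.93 (P4), 19.6 (P8) and 140.1 CPM (P21), and the tenascin gene Tnr, at 43.5 (E19), 158 (P4), 143 (P8) and 123 CPM (P21). Ptprz1, a receptor for several of these proteins, was highest at P8, at 4835 (E19), 6261 (P4), 6943 (P8) and 1966 CPM (P21).

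Regulators of synapses were also divided, with 6 of 18 higher and 6 lower (median −0.30). Gpc5 (chr14:115092215-116525179), a glypican gene of the cell surface, was at 438 (E19), 1201 (P4), 2534 (P8) and 9219 CPM (P21), 21.1-fold higher at P21 than at E19 (18.9 to 23.6). Its relative Gpc6 was at 1495 (E19), 1354 (P4), 1372 (P8) and 603 CPM (P21), 2.48-fold lower at P21 than at E19 (2.26 to 2.71), and Gpc4 at 53.01 (E19), 42.1 (P4), 38.2 (P8) and 24.3 CPM (P21). Sparcl1, the gene of the synapse-promoting protein hevin, was at 542 (E19), 437 (P4), 404 (P8) and 1725 CPM (P21), 3.18-fold higher at P21 than at E19 (2.86 to 3.55), with its difference after P8. Il33, a cytokine gene that acts on microglia, was at 14.95 (E19), 42.1 (P4), 70.6 (P8) and 88.6 CPM (P21). The other members lower by 2-fold beside Ephb1 included Thbs3, at 67.97 (E19), 53.6 (P4), 24.5 (P8) and 11.4 CPM (P21), and the ephrin gene Efnb2, at 21.7 (E19), 8.93 (P4), 7.84 (P8) and 2.14 CPM (P21).

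Cholesterol synthesis and lipid carriers gave 1 of 24 higher and 6 lower (median −0.28), and 1 and 3 with median-of-ratios scaling. The median was close to the −0.26 of all genes. Hmgcs1, whose promoter is shown above, was at 209 (E19), 142 (P4), 103 (P8) and 59.3 CPM (P21), 3.53-fold lower at P21 than at E19 (2.69 to 4.67). Apoe, the main lipid carrier gene, was at 2924 (E19), 2429 (P4), 1702 (P8) and 1745 CPM (P21). Also lower, beside Fabp7 (given above), were Mvk, Cyp51, Fabp5 and Abca1: Fabp5 was at 295 (E19), 305 (P4), 208 (P8) and 31.4 CPM (P21) and the cholesterol exporter gene Abca1 at 479.8 (E19), 579 (P4), 563 (P8) and 234 CPM (P21). Acsbg1 was the member that was higher, at 208 (E19), 232 (P4), 309 (P8) and 508 CPM (P21). Outside the list, Mt1 was at 12.2 (E19), 10.2 (P4), 31.4 (P8) and 295 CPM (P21), 24.1-fold higher at P21 than at E19 (12.6 to 53.1), and Mt2 at 2.72 (E19), 7.65 (P4), 6.86 (P8) and 164 CPM (P21), 60.2-fold higher at P21 than at E19 (16.5 to 500.1), both with their main step after P8.

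Glucose, glycogen and lactate genes gave 3 of 14 higher and 1 lower (median 0.32), or 5 and 1 with median-of-ratios scaling. The glycogen phosphorylase gene Pygm was at 0 (E19), 3.83 (P4), 13.7 (P8) and 68.6 CPM (P21). Ldha, which encodes a lactate dehydrogenase subunit, was at 144 (E19), 47.2 (P4), 49.02 (P8) and 25.01 CPM (P21), 5.76-fold lower at P21 than at E19 (3.90 to 8.70), and its partner Ldhb at 77.5 (E19), 89.3 (P4), 115 (P8) and 139 CPM (P21). Aldh1l1, used as an astrocyte marker, was at 311 (E19), 292 (P4), 259.8 (P8) and 164 CPM (P21).

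In the Notch pathway 1 of 11 members was higher and 4 were lower (median −0.61), or 2 and 2 with median-of-ratios scaling. Hes5, whose promoter is shown above, was at 279 (E19), 384 (P4), 303 (P8) and 80.05 CPM (P21), 3.48-fold lower at P21 than at E19 (2.75 to 4.42), with P21 below the other 3. The receptor gene Notch3 was at 432 (E19), 320.1 (P4), 335 (P8) and 144 CPM (P21), and Notch1 at 235 (E19), 224 (P4), 178 (P8) and 114 CPM (P21). Dll1, a ligand gene, was at 20.4 (E19), 6.38 (P4), 9.80 (P8) and 2.14 CPM (P21), and Jag1, another ligand gene, was the member that was higher, at 13.6 (E19), 8.93 (P4), 12.7 (P8) and 35.7 CPM (P21).

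Sonic hedgehog genes gave 1 of 9 higher and 0 lower (median 0.55), or 4 higher with median-of-ratios scaling. The target gene Gli1 was at 6.80 (E19), 10.2 (P4), 13.7 (P8) and 45.7 CPM (P21), and the receptor gene Ptch1 at 633 (E19), 597 (P4), 651 (P8) and 1096 CPM (P21). In BMP, FGF and Wnt signalling 2 of 22 were higher and 4 lower (median −0.34), or 3 and 4 with median-of-ratios scaling. The first shares, 9.09% and 18.2%, were close to the 8.5% and 19.8% over all genes. Id2 was at 32.6 (E19), 59.9 (P4), 104 (P8) and 194 CPM (P21), and Lgr6 is given above. Lower were the Wnt effector gene Lef1, at 111 (E19), 66.3 (P4), 83.3 (P8) and 31.4 CPM (P21), the BMP inhibitor gene Smad6, at 66.6 (E19), 35.7 (P4), 40.2 (P8) and 17.9 CPM (P21), Fzd2 at 65.2 (E19), 22.95 (P4), 16.7 (P8) and 18.6 CPM (P21) and the Wnt target gene Axin2, at 44.9 (E19), 68.9 (P4), 64.7 (P8) and 12.9 CPM (P21).

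Transcription factor genes gave 3 of 24 higher and 4 lower (median −0.19), or 6 and 1 with median-of-ratios scaling. The first shares, 12.5% and 16.7%, were not far from the 8.5% and 19.8% over all genes. Nr3c2, the mineralocorticoid receptor gene, was at 66.6 (E19), 191 (P4), 326 (P8) and 625 CPM (P21), 9.39-fold higher at P21 than at E19 (7.04 to 12.8). Mitf was at 32.6 (E19), 72.7 (P4), 75.5 (P8) and 201 CPM (P21), and Rora at 2648 (E19), 3425 (P4), 4366 (P8) and 6149 CPM (P21). Pax7, a gene of the dorsal midbrain, was at 69.3 (E19), 19.1 (P4), 39.2 (P8) and 10.01 CPM (P21), and Lhx2 at 20.4 (E19), 10.2 (P4), 4.90 (P8) and 2.86 CPM (P21). Nfib and Nfix, which promote the glial fate, were at 2108 to 1018 CPM and 363 to 173 CPM from E19 to P21 and passed 2-fold by little. Emx2, a gene of the forebrain, was below 20 CPM, and so were En1 and En2.

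Protoplasmic nuclei differed among themselves in several of the genes above. The spread was measured as the variance of depth-scaled counts over that of Poisson counting, which is 1 where nuclei differ by counting alone, and the median gene stood between 1.25 and 1.32. Tnc had the largest spread at E19 (14.5) and P4 (15.1), and Ptprz1 at P8 (13.9). At E19 the next were Nav2 (13.7) and Nrg1 (13.6), at P4 Luzp2 (10.7) and Ptprz1 (8.95), and at P8 Tnc (12.9) and Trpm3 (12.8). At P21 Malat1 (11.1), Gpc5 (7.76) and Unc13c (7.04) led. The 72 Nrg1 UMIs of 1 nucleus were 10.3% of all Nrg1 UMIs at E19.

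Tnc held a median of 25.1 UMIs per 10000 at E19, with a 10th percentile of 1.77 and a 90th of 75.9, and a median of 0 at P21. The Gpc5 median was 0 in the first library, then 3.60, 15.99 and 88.1. At E19 38.1% of nuclei held a Gpc5 UMI and at P21 100%, so most nuclei of E19 and none of P21 lacked one. Trpm3 went from a median of 0 to 102, with 1 nucleus at P8 at 160 and a median there of 7.27. Gria1 had a median of 0 in the 3 earlier libraries and 19.8 at P21.

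**Figure D4:**
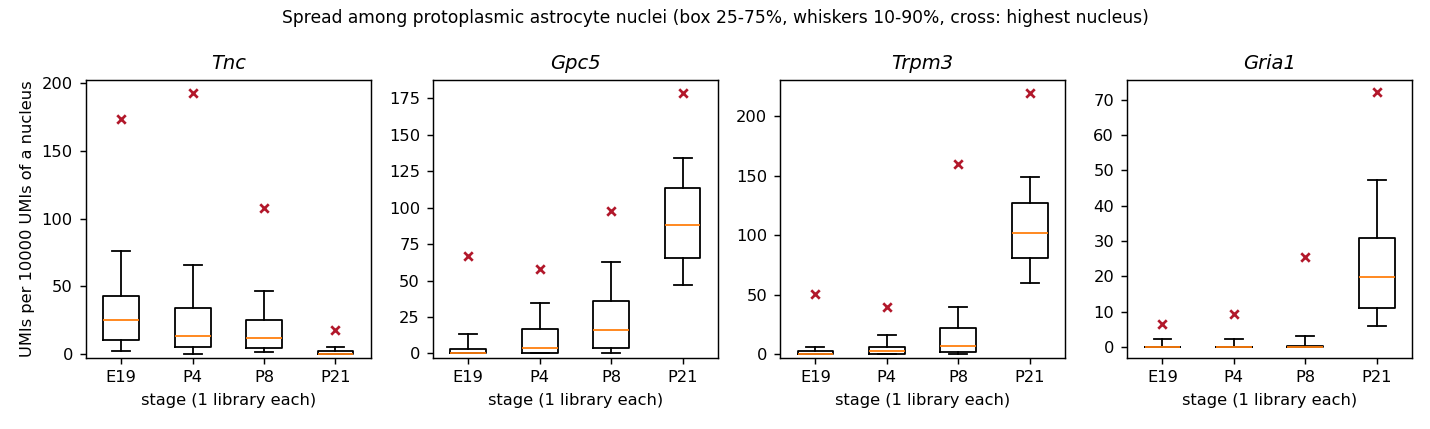
UMIs of Tnc, Gpc5, Trpm3 and Gria1 per 10000 UMIs of each protoplasmic nucleus, by stage (155, 175, 188 and 232 nuclei); boxes span the 25th to 75th percentile with the median, whiskers the 10th to 90th, and crosses mark the highest nucleus. Nuclei overlapped between stages for Tnc and Gpc5, and for Gria1 only P21 had a median above 0.

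Before protoplasmic and fibrous astrocytes are compared, the fibrous label must be set against its markers. The 8 markers of fibrous or subpial astrocytes, which include Gfap, summed to 189 CPM at E19 and 417 at P4 in the fibrous nuclei, but to 2979 at P8 and 4467 at P21. In protoplasmic astrocytes they summed to 174, 296, 261 and 204 CPM. At E19 29 of 41 fibrous nuclei and at P4 41 of 48 held 3 or more UMIs of 12 genes of motile cilia, a list drawn up after the values were seen, against 6 of 45 at P8 and 6 of 55 at P21. Of protoplasmic nuclei 1, 0, 1 and 0 did. A Gfap UMI was present in 1 of 41 and 14 of 48 fibrous nuclei at E19 and P4, and in 40 of 45 and 50 of 55 at P8 and P21. The data therefore do not bear out the fibrous label at E19 and P4, where most nuclei carrying it held UMIs of cilium genes.

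**Figure D5:**
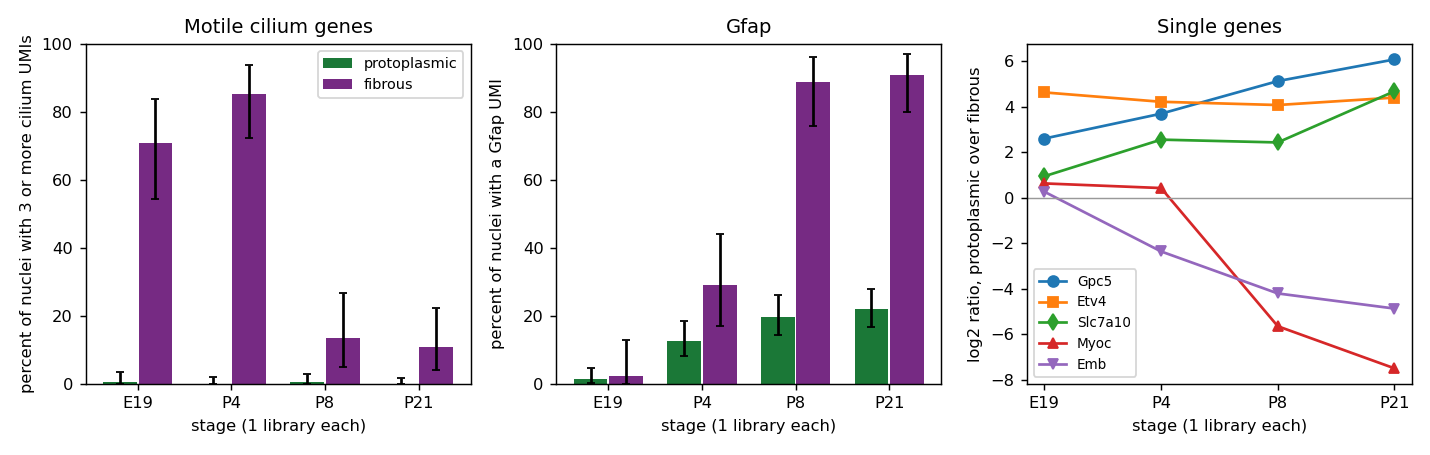
Share of protoplasmic and fibrous nuclei with 3 or more UMIs of 12 cilium genes (left) and with a Gfap UMI (middle), in percent with exact 95% intervals, and log2 ratio of protoplasmic over fibrous CPM of 5 genes (right), at each stage. Cilium genes mark the fibrous nuclei of E19 and P4, Gfap those of P8 and P21, and Etv4 was above 0 in all 4 libraries.

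Protoplasmic and fibrous nuclei were compared within each library. Both labels were made by the authors on these counts, so the differences describe the labels and were not tested. Among 3679 genes at 100 CPM or more in either label and any library, 58 were at least 2-fold higher in protoplasmic nuclei in all 4 libraries (1.58%) and 161 at least 2-fold lower (4.38%). In P8 and P21 alone, without the ciliated fibrous nuclei (39 and 49 left), 122 were higher and 231 lower. A gene then had to pass in these libraries only and not in all 4, so these counts cannot be set against those above. The number of genes compared in that setting is not given here, so their share is not known.

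Gpc5 and the transcription factor gene Etv4, an effector of FGF signalling, stood furthest above the fibrous label. Gpc5 was at 68.2, 88.6, 68.1 and 132 CPM in fibrous nuclei, with log2 ratios of 2.60, 3.69, 5.12 and 6.07. Etv4 was at 247 (E19), 416 (P4), 459.8 (P8) and 193 CPM (P21) in protoplasmic and 5.25, 17.7, 22.7 and 4.41 CPM in fibrous nuclei, with log2 ratios of 4.62, 4.21, 4.07 and 4.39. Its relative Etv5 was at 149.5, 179.8, 189 and 167 CPM against 26.2, 8.86, 18.2 and 17.6. Etv4 and Etv5 were higher in protoplasmic nuclei at every stage.

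Eps8, an actin regulator gene, was at 196, 459, 773 and 769.7 CPM in protoplasmic and 20.99, 44.3, 95.4 and 83.8 CPM in fibrous nuclei. Phactr3 was at 186, 273, 304 and 415 CPM against 78.7, 4.43, 13.6 and 97.02, and Tnfaip8 at 205, 302, 338 and 153 against 47.2, 39.9, 4.54 and 30.9. The adaptor gene Shc3 was at 387, 251, 275 and 254 CPM against 99.7, 39.9, 31.8 and 8.82, and the noncoding RNA gene Gm44257 at 105 against 0 at P21. Tnfaip8 and Etv4 were highest at P8 in protoplasmic nuclei.

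The genes furthest in the other direction were at or near 0 in protoplasmic nuclei and belonged in part to motile cilia. Spag17, a gene of the axoneme, had 1 UMI in all protoplasmic nuclei (P8) and was at 62.98 (E19), 509.6 (P4), 36.3 (P8) and 123 CPM (P21) in fibrous nuclei, and the dynein gene Dnah12 was at 41.99 (E19), 612 (P4), 68.1 (P8) and 123 CPM (P21). Sspo, the gene of SCO-spondin, was at 26.2 (E19), 1090.2 (P4), 145 (P8) and 282 CPM (P21), and Lmx1b, a transcription factor gene of the roof plate, at 220.4 (E19), 244 (P4), 81.7 (P8) and 30.9 CPM (P21). An Sspo UMI was present in 2.44% (E19), 22.9% (P4), 2.22% (P8) and 5.45% (P21) of fibrous nuclei, so its levels rest on few nuclei. The others named by rank were Ak9 (fibrous 178, 452, 27.2 and 79.4 CPM), C230072F16Rik (105, 469.8, 54.5 and 115), Gm29478 (504, 904, 295 and 79.4) and 1700007G11Rik (205, 674, 40.9 and 225). In all 8 the highest fibrous level was that of P4. Over P8 and P21 without the ciliated fibrous nuclei, the mean log2 ratio of protoplasmic over fibrous turned direction for Spag17, from −4.48 over the 4 libraries to 0.13, and for 1700007G11Rik, from −4.20 to 0.38.

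At P8 and P21 without the ciliated nuclei, the genes highest in the fibrous label included Myoc, Gfap, Emb and Greb1l. Myoc, the myocilin gene, was at 1033 and 2602 CPM in the remaining fibrous nuclei and at 13.7 and 8.58 CPM in protoplasmic nuclei. Gfap was at 1934 and 1767 CPM against 70.6 and 63.6. Gpc5, Etv4, Tnfaip8, Rgcc and Slco1c1 led in protoplasmic nuclei. Slco1c1 was at 54.9 and 164 CPM against 5.46 and 0, and Grin2c, the 10th, at 8.82 and 137 CPM against 0 and 0.

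Changes with age were then set side by side in both labels, where the change of label content described above moves with stage and its part was not tested. Vav3, an activator gene of small GTPases, was at 36.7 (E19), 52.3 (P4), 70.6 (P8) and 264 CPM (P21) in protoplasmic and 89.2, 53.2, 77.2 and 13.2 CPM in fibrous nuclei. Slco1c1 was at 5.25, 164, 9.08 and 0 CPM in fibrous nuclei, and Lgr6 at 10.5, 35.5, 18.2 and 13.2. These 3 had the largest excess of the protoplasmic change over the fibrous one.

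The opposite held for Myoc, Pla2g3 and Inpp5j. Myoc was at 2.72 (E19), 7.65 (P4), 13.7 (P8) and 8.58 CPM (P21) in protoplasmic and 0, 4.43, 931 and 2439 CPM in fibrous nuclei. Pla2g3, a secreted phospholipase gene, was at 137 (E19), 181 (P4), 247 (P8) and 24.3 CPM (P21) against 0, 39.9, 563 and 176 CPM, and Inpp5j at 25.8 (E19), 52.3 (P4), 21.6 (P8) and 3.57 CPM (P21) against 0, 22.2, 95.4 and 176 CPM. Pla2g3 was highest at P8 in both labels.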

How the data were processed

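Nuclei of the superior colliculus were sequenced with the 10x Genomics 3′ v3 chemistry, at a target of 2000 nuclei per sample, per the labels. Reads were processed with Cell Ranger 3.0.2 against a pre-mRNA reference of mm10, per the labels' protocols, so intronic reads count. The deposited matrix holds raw UMI counts of 31053 genes, and the deposited table of nuclei gives stage, subtype, cluster and the percent of mitochondrial and ribosomal UMIs. The filters on nuclei, the treatment of doublets, the naming of subtypes and the use of strand are not given in the sources used here. Map coordinates and reference labels (6 columns) were not used. One protocol abbreviates the embryonic day differently, and the stage label was used.

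UMI counts were summed per library and subtype and scaled to CPM. Log2 ratios had 5 CPM added, which understates changes of low genes. Exact Poisson, conditional and Clopper-Pearson intervals (95%) cover counting error only, and a count of 0 was set to 3 counts per library for lower bounds on folds. No nucleus was filtered or left out by thinning. With 1 library a stage, no test was made. Calculations were tested on simulated data (Python 3.11.15, numpy 2.4.6, scipy 1.17.1, pandas 2.3.3, matplotlib 3.10.9).

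Named genes were the 10 largest rises and falls from E19 to P21, the 3 largest per step and the 3 with the largest excess or deficit at P4 or P8. The rule added the 8 highest genes of each astrocyte label, the 3 whose change differed most between labels in each direction, the 3 largest rises and falls past 2-fold of each list, the markers and the 3 genes of largest spread per library. Genes of mitochondria, ribosomal proteins and haemoglobin, those on the Y chromosome, and Xist and Tsix were left out of the ranks. Further list members were named after their values were seen, and some genes the rule names are not reported here. The cell group and the gene lists were chosen with earlier results of these data known. Of the 121 genes named by rule, 55 overlapped no other gene in GENCODE M21, 33 overlapped one on the same strand and 60 one on the opposite strand, so their UMIs could be shared. Gene positions were found for 31011 of the 31053 identifiers (99.9%). Alternatives changed the added CPM, the filter on low levels, the scaling, the weight of nuclei and the nuclei kept.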

Additional observations from a re-analysis of the deposited data

Results flagged for a closer look

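In 8 genes the log2 ratio of P21 over E19 was past 2-fold in opposite directions in protoplasmic and fibrous astrocytes, with 1 library a stage, so the difference was not tested. Vav3 gave 2.69 in protoplasmic and −2.37 in fibrous nuclei, Slco1c1 gave 4.02 and −1.04, and Glul gave 2.93 and −1.33. Pla2g3 gave −2.28 and 5.18, Inpp5j −1.85 and 5.18, and Smad6 −1.65 and 3.16. Rxrg gave −1.98 and 2.10, and Nav2 −1.64 and 1.997. Between the same stages the share of fibrous nuclei with 3 or more cilium UMIs went from 70.7% to 10.9%, and its part in these differences was not tested.

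Glul levels in fibrous nuclei were 62.98 (E19), 35.5 (P4), 31.8 (P8) and 22.05 CPM (P21), so the fibrous value at P21 rests on 5 UMIs. The fibrous ratio of Slco1c1 rests on 1 UMI at E19 and 0 at P21, that of Vav3 on 17 and 3, that of Rxrg on 3 and 19, and that of Smad6 on 6 and 73. Inpp5j and Pla2g3 had 0 fibrous UMIs at E19 and 40 each at P21. Nav2 was at 1673 (E19), 996 (P4), 699 (P8) and 535 CPM (P21) in protoplasmic and 409, 705, 1294 and 1649 CPM in fibrous nuclei, and it was among the genes of largest spread between protoplasmic nuclei at E19.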

How the results depend on the processing

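Among 2563 genes at 100 CPM or more, 358 were at least 2-fold higher and 490 lower at P21 than at E19. With genes at 20 CPM or more these counts were 723 and 1682, with no filter on low values 1002 and 2282, and with median-of-ratios scaling 540 and 325. The first 2 settings admit more genes. As a share of non-neuronal nuclei, protoplasmic astrocytes were 43.8%, 39.6%, 34.2% and 28.1% from E19 to P21. In the comparison with fibrous nuclei, 161 genes were lower in protoplasmic nuclei and 90 with 20 CPM added. With nuclei of fewer than 2 neuron marker genes only, 103 were higher and 53 lower, where 22 to 33 protoplasmic nuclei a stage were left. With P8 and P21 alone and no ciliated fibrous nuclei, an alternative chosen after the data were seen, 122 were higher. Fewer libraries then have to pass, so this count cannot be set against the 58 of the 4 libraries. Reversed values were Trpm3 from P4 to P8, at −0.11 with both subtypes together, and the mean log2 ratio of protoplasmic over fibrous for Spag17 (0.13) and 1700007G11Rik (0.38) without ciliated nuclei. Trpm3 in fibrous nuclei was at 5003 CPM at P4 and 254 at P8. Of the 303 log2 ratios between stages recomputed, 233 stayed within the range set by the counting intervals of both levels. Another 69 moved further and 1 reversed. Of 80 between labels, 54 stayed within the range of their ratios over the 4 libraries, 24 moved further and 2 reversed. Of the 10 largest rises, between 6 and 10 kept their place under the alternatives, and of the 10 largest falls between 4 and 10. Both lowest values occurred with nuclei of fewer than 2 neuron marker genes, and that of the rises also with 20 CPM added. The leading 3 of each step were less stable: from E19 to P4 between 1 and 3 rises and 0 and 3 falls kept their place, from P4 to P8 between 0 and 3 rises and 1 and 3 falls, and from P8 to P21 between 2 and 3 rises and 1 and 3 falls. None of the 3 rises from P4 to P8 did with genes at 20 CPM or more, with both subtypes together or with nuclei of few neuron marker genes, and none of the 3 falls from E19 to P4 did with genes at 20 CPM or more. No paired analysis was possible because each stage has 1 library. Low counts limit the genes near 0 at E19: folds of genes with 0 UMIs there are lower bounds, and those resting on 2 or 3 UMIs (Gpld1, Gjb6, Grin2c and Mt2) have wide counting intervals.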

Other observations

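Further lists were followed in protoplasmic astrocytes. Of the immediate early genes, 3 of 12 reached 20 CPM and all 3 were at least 2-fold lower at P21 than at E19. Jund was at 74.8 (E19), 66.3 (P4), 29.4 (P8) and 16.4 CPM (P21), Jun at 31.3 (E19), 20.4 (P4), 12.7 (P8) and 5.003 CPM (P21) and Btg2 at 35.3 (E19), 40.8 (P4), 23.5 (P8) and 10.01 CPM (P21). Fosb was listed at 0 in every library. Of the noncoding RNAs of nuclear speckles and related genes, 1 of 5 was higher, and 2 with median-of-ratios scaling. Neat1, the scaffold RNA of paraspeckles, was at 21.7 (E19), 43.4 (P4), 40.2 (P8) and 157 CPM (P21), 7.23-fold higher at P21 than at E19 (4.35 to 12.9). Malat1, the most abundant of these RNAs in nuclei, took 2.10% (E19), 1.26% (P4), 1.77% (P8) and 3.13% (P21) of protoplasmic UMIs.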
